A study of Homo sapiens with 6 samples.

Results

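Chemokine genes were followed in A549 cells, which were grown out of a lung carcinoma and are labelled as alveolar epithelium. The set holds 10 of the 58735 genes in the deposited count table: CXCL1, CXCL2, CXCL3, CXCL5, CXCL6, CXCL8, CXCL16, CCL2, CCL20 and CX3CL1. Members were chosen by gene name, and the set was proposed with earlier results of these same libraries known. Their difference between the groups is therefore given as a description, and no count of members is used as support for a change. RNA was sequenced from 3 libraries of cells given paraquat with SS-31 (PQ+SS-31) and from 3 libraries of cells given paraquat alone (PQ), all labelled 48 h. Every library thus comes from paraquat-treated cells of a single line, and no untreated library was used here. The comparison asks which transcripts SS-31 alters in cells under paraquat. No source used here gives the doses, although SS-31 was tried at several concentrations. The labels do not call the replicates separate cultures, and the p-values therefore measure a spread between libraries that may be technical. In each list of 3 values, the order is replicate 1, replicate 2 and replicate 3.

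Chemokines are small secreted proteins that guide leukocytes along a gradient. The CXC members with a glutamate-leucine-arginine motif, CXCL1, CXCL2, CXCL3, CXCL5, CXCL6 and CXCL8, bind the receptor CXCR2, some of them CXCR1 as well, and draw neutrophils. CCL2 draws monocytes through CCR2, CCL20 draws cells that carry CCR6, and CXCL16 and CX3CL1 are made as membrane-anchored proteins that proteases can shed. In epithelial cells, interleukin-1 and tumour necrosis factor induce many of these genes through NF-kB, and their messages are often short-lived. Paraquat is a herbicide whose redox cycling produces superoxide. SS-31, also called elamipretide, is a peptide that concentrates at the inner mitochondrial membrane and binds cardiolipin.

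Total counts ranged from 16563150 to 17576827 in PQ+SS-31 libraries and from 16332061 to 16932942 in PQ libraries. Levels are given as CPM, a gene's counts relative to its library's total after TMM scaling. Differences are log2 fold changes of PQ+SS-31 over PQ from edgeR's quasi-likelihood test, and a gene is called where its Benjamini-Hochberg adjusted p over all tested genes is under 0.05.

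The epithelial keratins KRT8, KRT18 and KRT7 stood at 408 to 2380 CPM in the group means, whereas EPCAM, a surface marker of most epithelia, stood at 0.702 CPM in PQ+SS-31 cells and 0.597 CPM in PQ cells. The surfactant genes SFTPB, SFTPC and SFTPA1 and the lung factor NKX2-1, which mark alveolar type II cells, had too few counts to be tested. ABCA3 and NAPSA, also markers of type II cells, were tested. ABCA3 averaged 108.3 CPM in PQ+SS-31 cells and 119.0 CPM in PQ cells (log2 fold change -0.14). NAPSA was low, at 2.10 CPM in PQ+SS-31 cells, with a log2 fold change of 0.38 over PQ cells. Of 13 epithelial identity genes, 9 were tested and 1 was called, CDH1, which encodes E-cadherin and rose to 24.4 CPM in PQ+SS-31 cells, against 13.6 CPM in PQ cells (edgeR adjusted p = 0.0389, passing in 1 of 6 refits without 1 library). Over all tested genes, edgeR called 0.129% higher. DESeq2 called 3 of the identity genes higher, CDH1, KRT8 and KRT18, against 0.958% of the genes it tested. The 12 leukocyte markers summed to 13.1 to 15.6 CPM in PQ+SS-31 libraries and 8.72 to 12.3 CPM in PQ libraries. Of these 12 markers, 4 were tested, and edgeR, DESeq2 and limma-voom called 0 of them. Against 5.94% and 5.62% of all tested genes, 0 of them were lower and 1 higher at an unadjusted p under 0.05 in edgeR. That gene was the most abundant, the monocyte marker CD14, at 6.30 ± 0.416 CPM in PQ+SS-31 cells and 4.31 ± 0.727 CPM in PQ cells (SD, n = 3 each), with groups that did not overlap (log2 fold change 0.54, edgeR adjusted p = 0.287). The integrin gene ITGAM averaged 4.16 CPM in PQ+SS-31 cells and 3.74 CPM in PQ cells, and S100A9 averaged 1.73 CPM in PQ+SS-31 cells and 1.93 CPM in PQ cells. The neutrophil elastase gene ELANE averaged 1.56 CPM in PQ+SS-31 cells and 0.928 CPM in PQ cells. The other 8 had too few counts to be tested, among them the pan-leukocyte gene PTPRC, with 1, 0 and 3 counts in PQ+SS-31 libraries and no count in PQ libraries. CSF3R and MPO of neutrophils and CD3E of T cells had no count in any library. The 9 fibroblast and endothelial markers summed to 14.3 to 22.8 CPM in PQ+SS-31 libraries and 11.8 to 18.7 CPM in PQ libraries. Of these 9, 3 were tested and edgeR, DESeq2 and limma-voom called 0. At an unadjusted p under 0.05 in edgeR, 0 were lower and 1 higher, against 5.94% and 5.62% of all tested genes. The higher gene was LUM, at 1.83 CPM in PQ+SS-31 cells and 0.80 CPM in PQ cells. COL1A1, the most abundant, averaged 13.5 CPM in PQ+SS-31 cells and 12.1 CPM in PQ cells (log2 fold change 0.15). COL3A1 averaged 1.56 CPM in PQ+SS-31 cells and 1.16 CPM in PQ cells (log2 fold change 0.42). The groups overlapped in COL1A1 and in COL3A1. The part of these markers in the chemokine values was not tested.

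CXCL8, the neutrophil chemokine interleukin-8, was the only member that passed the threshold over all genes, and it fell to 0.629 times its PQ level in PQ+SS-31 cells. CXCL5, another neutrophil chemokine and the most abundant member, was lower in all 3 PQ+SS-31 libraries than in any PQ library but did not pass. CXCL1, CXCL2 and CXCL3 had lower means in PQ+SS-31 cells, with libraries that overlapped and a wide spread inside both groups. CX3CL1 was higher in all 3 PQ+SS-31 libraries and did not pass, and CCL2, CCL20 and CXCL16 overlapped. CXCL6 was nearly silent. Of the 10 members, 9 had enough counts to be tested, 1 was called lower and 0 higher by edgeR, against 0.463% of all 15550 tested genes called lower and 0.129% called higher. At an unadjusted p under 0.05 edgeR had 4 members lower and 1 higher, against 5.94% and 5.62% of all tested genes. DESeq2 called 2 members lower and 0 higher, against 1.63% and 0.958% of the 12836 genes to which it gave an adjusted p. Limma-voom called 1 member lower and 0 higher, against 0.476% and 0.135% of all tested genes. The groups did not overlap in 2 members in the lower direction and 1 in the higher direction, against 8.86% and 9.16% of all tested genes. The median log2 fold change of the 9 tested members was -0.36, beside 0.00 over all tested genes. Of these members 6 were negative and 3 positive, beside 7765 negative and 7782 positive over all tested genes.

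**Figure D1:**
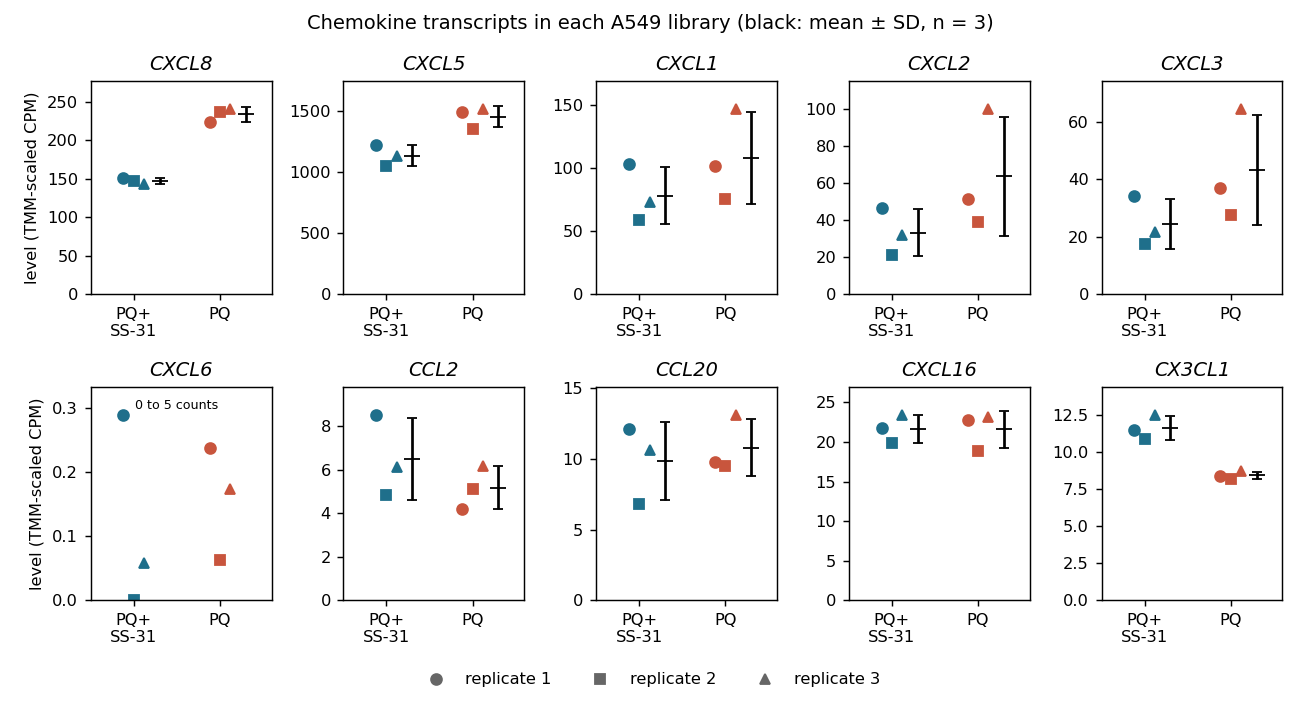
Level of each of the 10 chemokine transcripts (TMM-scaled CPM, linear axis from 0) in the 3 PQ+SS-31 libraries and the 3 PQ libraries. Symbols mark the replicate number and black bars the mean ± SD. In CXCL8, CXCL5 and CX3CL1 the groups do not overlap, CXCL1, CXCL2 and CXCL3 are highest in PQ replicate 3, and CXCL6 rests on 0 to 5 counts a library.

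The 6 neutrophil-attracting CXC genes lie together on chromosome 4, and their upstream sequences are shown because those of CXCL1, CXCL2 and CXCL3, whose levels moved together, are nearly the same, as are those of CXCL5 and CXCL6, whose levels are far apart. The RefSeq promoter table (GRCh38.p14) held 7 of the 10 members, CCL20 being the other. Each line gives the 120 bases upstream of the RefSeq transcription start, 5′ to 3′ on the gene's strand, with capitals marking the letters GGAATTTCC, a core of sites bound by NF-kB. Except for CXCL1, the RefSeq start lies inside the gene's span in the count table.
CXCL8 (chr4:73740449-73740568, plus strand): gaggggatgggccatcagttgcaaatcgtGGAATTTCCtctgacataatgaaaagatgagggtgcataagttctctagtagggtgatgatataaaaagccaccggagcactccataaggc
CXCL1 (chr4:73869273-73869392, plus strand): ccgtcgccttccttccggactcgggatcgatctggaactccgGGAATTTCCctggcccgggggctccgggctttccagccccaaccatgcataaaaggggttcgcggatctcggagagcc
CXCL2 (chr4:74099196-74099315, minus strand): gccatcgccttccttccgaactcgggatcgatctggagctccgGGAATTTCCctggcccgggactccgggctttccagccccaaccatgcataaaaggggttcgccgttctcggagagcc
CXCL3 (chr4:74038690-74038809, minus strand): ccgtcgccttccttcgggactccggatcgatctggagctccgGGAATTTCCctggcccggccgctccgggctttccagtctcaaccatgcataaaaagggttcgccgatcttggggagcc
CXCL5 (chr4:73998678-73998797, minus strand): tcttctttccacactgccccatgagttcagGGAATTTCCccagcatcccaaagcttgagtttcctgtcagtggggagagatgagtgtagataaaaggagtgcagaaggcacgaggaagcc
CXCL6 (chr4:73836558-73836677, plus strand): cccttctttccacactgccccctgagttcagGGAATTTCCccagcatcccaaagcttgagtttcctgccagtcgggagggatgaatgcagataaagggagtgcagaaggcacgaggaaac

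The capitalised core was searched on both strands of the 250 bases upstream. It was found in 6 of the 7 members with a promoter, all 6 on chromosome 4, and in 145 of all 35116 promoters of that length (0.413%). These 6 matches are not independent, since some of the windows are nearly the same. In these genes its first base lay between -91, in CXCL8, and -77, in CXCL2, counted from the start site. CCL20 had no match. The letters TGACTCA of an AP-1 site were found in CXCL8 alone among the 7, at -137 to -131, and in 4.20% of all promoters. The letters TATAAA of a TATA box were found in CXCL8 and CCL20 and in 10.7% of all promoters. The C/EBP-type letters TTGCNNAA were found in CXCL2, at -188 to -181, and in 9.05% of all promoters. None of these matches overlapped another. A match is a description of the letters and does not show that a factor bound there. The search took these exact letters only, with N as any base. A missing match therefore does not show that a promoter lacks a site of that kind with other letters.

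By alignment, the window of CXCL2 shared 94.2% of its 120 bases with that of CXCL1, and CXCL3 shared 90.8% with CXCL1. CXCL6 shared 91.7% with CXCL5. The window of CXCL8 shared 46.7% to 50.8% with those of the other chromosome 4 members. CCL20, from chromosome 2, shared 42.5% to 52.5% with the 6, so the CXCL8 window was no closer to its neighbours than to that of CCL20.

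CXCL8 (chromosome 4, 73740506 to 73743716, GRCh38, plus strand) stood at 151, 146 and 143 CPM in PQ+SS-31 libraries, against 223, 237 and 241 CPM in PQ libraries. The highest PQ+SS-31 library lay well below the lowest PQ library, and the libraries inside each group were close together. The means were 147 ± 4.27 CPM in PQ+SS-31 cells and 234 ± 9.31 CPM in PQ cells (SD, n = 3 each), resting on 2456 to 4141 counts a library. This is a log2 fold change of -0.67 ± 0.08 (SE), with an adjusted p of 0.0187 by edgeR. RNA was taken from whole cultures, in which fewer cells making a message and less message per cell cannot be told apart. In refits without 1 library it was -0.70 to -0.65, and CXCL8 passed in 1 of the 6, that without PQ replicate 3 (edgeR adjusted p = 0.00555). In the other refits, each with 5 libraries, the edgeR adjusted p was 0.0700 to 0.167.

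CXCL5 (chromosome 4, 73995642 to 73998779, minus strand), also known as ENA-78, was the most abundant member. It stood at 1224, 1052 and 1128 CPM in PQ+SS-31 libraries, against 1489, 1354 and 1519 CPM in PQ libraries. All PQ+SS-31 libraries lay below all PQ libraries, with a proportionally narrower gap than for CXCL8. The means were 1135 ± 86.3 CPM in PQ+SS-31 cells and 1454 ± 87.9 CPM in PQ cells (SD, n = 3 each), a log2 fold change of -0.36 ± 0.10 (SE) that did not pass with edgeR (adjusted p = 0.197). DESeq2 called it, with an adjusted p of 0.0260.

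CXCL6, also known as GCP-2, is the closest relative of CXCL5, and the upstream windows printed above differ at few bases. It had 5, 0 and 1 counts in PQ+SS-31 libraries, against 4, 1 and 3 counts in PQ libraries. It was the only member that did not pass the filter on low counts, and no fold change is given. The count of 0 in PQ+SS-31 replicate 2 allows a level of up to 0.178 CPM, by counting error alone. CXCL5 had 130882 counts over the 6 libraries and CXCL6 had 14.

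CXCL2 (chromosome 4, 74097035 to 74099293, minus strand), also known as MIP-2 alpha, stood at 46.7, 21.4 and 32.0 CPM in PQ+SS-31 libraries, against 51.7, 39.1 and 100.3 CPM in PQ libraries. PQ replicate 3 exceeded the other PQ libraries together, and PQ+SS-31 replicate 1 lay above PQ replicate 2. Its log2 fold change was -0.93 ± 0.36 (SE, edgeR adjusted p = 0.358), the lowest among the members, and it was -0.45 without PQ replicate 3 and -1.25 without PQ+SS-31 replicate 1.

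CXCL3 (chromosome 4, 74036589 to 74038807, minus strand), also known as GRO gamma, stood at 34.3, 17.5 and 21.6 CPM in PQ+SS-31 libraries, against 37.0, 27.7 and 64.4 CPM in PQ libraries. The order of the libraries was that of CXCL2, and the groups overlapped. CXCL3 had a log2 fold change of -0.82 ± 0.32 (SE, edgeR adjusted p = 0.373), and -0.41 without PQ replicate 3.

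CXCL1 (chromosome 4, 73869393 to 73871242, plus strand), also known as GRO alpha, stood at 103, 59.0 and 72.9 CPM in PQ+SS-31 libraries, against 102, 75.6 and 147 CPM in PQ libraries. PQ+SS-31 replicate 1 was level with PQ replicate 1, and PQ replicate 3 again was highest. For CXCL1 the log2 fold change was -0.47 ± 0.26 (SE, edgeR adjusted p = 0.550), and -0.19 without PQ replicate 3.

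**Figure D2:**
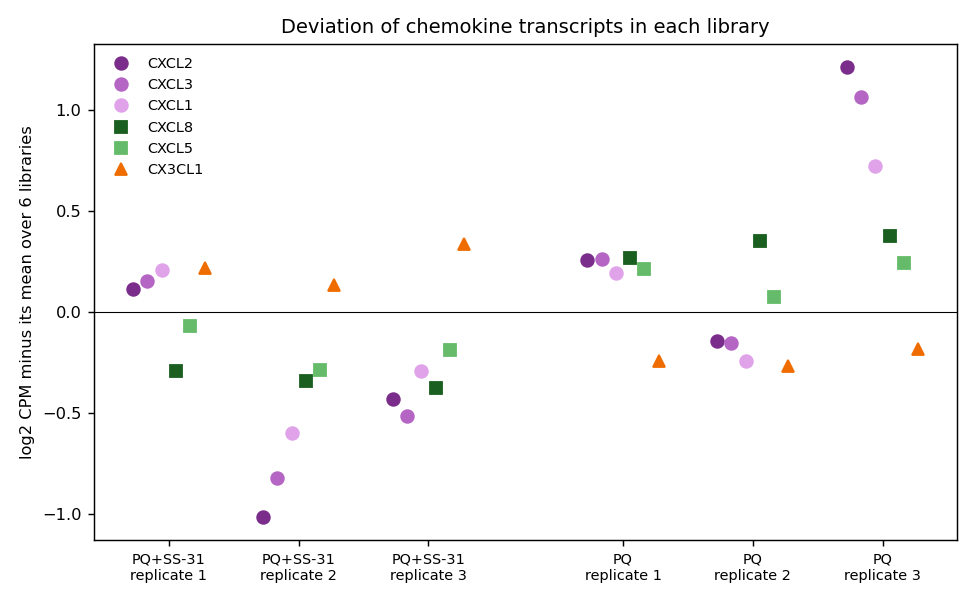
Deviation of log2 CPM from its mean over the 6 libraries (y axis) for 6 chemokine transcripts in each library (x axis). CXCL1, CXCL2 and CXCL3 move together within both groups, with CXCL2 at -1.01 in PQ+SS-31 replicate 2 and at 1.22 in PQ replicate 3, whereas CXCL8 stays between -0.37 and -0.29 in PQ+SS-31 libraries and between 0.27 and 0.38 in PQ libraries.

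The 3 genes thus varied together inside the groups, in a way that CXCL8 did not. A measure of likeness, the root-mean-square difference between the centred log2 CPM of a pair of genes over the 6 libraries, was 0.107 between CXCL3 and CXCL2, the smallest of the 11410 genes with a mean of at least 5 CPM. CXCL1 ranked 10 in likeness to CXCL2, and CXCL8 ranked 443. The measure includes the difference between the groups, so it does not describe the spread inside them alone. CXCL2 was taken for this comparison after its values were seen. Reads could be shared between these genes, since 12.5% of the distinct 50-base stretches in CXCL2 transcripts of GENCODE 29 also occur in CXCL1 or CXCL3, and 4.81% and 6.01% of those in CXCL1 and CXCL3 occur in the other members of the trio. For stretches of 100 bases the share was 5.0% in CXCL2, 3.27% in CXCL3 and 0% in CXCL1. No source used here gives the read length, and the split of reads among the trio is uncertain to that extent.

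With no filter on low counts, edgeR called CXCL1, CXCL2 and CXCL3 lower as well, with adjusted p of 0.00808, 3.09e-11 and 1.46e-07. That setting tested 30286 genes and called 0.783% lower and 0.515% higher. No other alternative called CXCL1, CXCL2 or CXCL3. The adjusted p of CXCL2 was 0.538 in DESeq2, 0.383 in limma-voom and 0.354 in edgeR with a filter of 1 CPM in 3 libraries. In edgeR with the replicate number as a block, the adjusted p was 0.0628 for CXCL2, 0.0972 for CXCL3 and 0.202 for CXCL1. The calls without a filter thus depend on that setting. Features of the libraries were set beside CXCL1, CXCL2 and CXCL3. The TMM factors were 1.045, 0.966 and 0.979 in PQ+SS-31 libraries, against 0.997, 0.962 and 1.055 in PQ libraries. Within each group, the libraries had the same order by this factor as by CXCL1, CXCL2 and CXCL3. The share of counts from mitochondrial genes was 8.39%, 12.6% and 12.6% in PQ+SS-31 libraries, against 9.95%, 11.95% and 9.08% in PQ libraries. In each group the library with the lowest share had the highest CXCL1, CXCL2 and CXCL3, and in PQ libraries the whole order was reversed. The nuclear RNA NEAT1, which followed the trio only in part, stood at 365, 200.2 and 437 CPM in PQ+SS-31 libraries, against 220.3, 152 and 885 CPM in PQ libraries. It was highest in PQ replicate 3 too, whereas within the PQ+SS-31 libraries it was highest in replicate 3 and not in replicate 1. The part of these features in the levels of the trio was not tested.

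CCL2, the monocyte chemoattractant MCP-1 (chromosome 17, 34255218 to 34257203), stood at 8.51, 4.81 and 6.11 CPM in PQ+SS-31 libraries, against 4.21, 5.12 and 6.17 CPM in PQ libraries. PQ+SS-31 replicate 1 was highest and the groups overlapped. The difference on the log2 scale was 0.33 ± 0.24 (SE, edgeR adjusted p = 0.691), and 0.08 when PQ+SS-31 replicate 1 was left out.

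CCL20, the ligand of CCR6 (chromosome 2, 227805739 to 227817564), stood at 12.1, 6.77 and 10.7 CPM in PQ+SS-31 libraries, against 9.79, 9.48 and 13.1 CPM in PQ libraries. The lowest and the highest library differed by less than 2-fold and the groups overlapped. CCL20 had a log2 fold change of -0.13 ± 0.23 (SE, edgeR adjusted p = 0.901), and its sign turned without PQ replicate 3 (0.02) or PQ+SS-31 replicate 2 (0.075).

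CXCL16, a transmembrane chemokine that also takes up oxidised lipoprotein (chromosome 17, 4733526 to 4739922), stood at 21.7, 19.9 and 23.4 CPM in PQ+SS-31 libraries, against 22.7, 18.8 and 23.2 CPM in PQ libraries. The group means, 21.7 ± 1.76 CPM in PQ+SS-31 cells and 21.6 ± 2.37 CPM in PQ cells (SD, n = 3 each), differed by less than the spread inside either group. Their log2 ratio was 0.01 ± 0.12 (SE, edgeR adjusted p = 0.996), with a negative sign when scaled by library size alone (-0.0087). CXCL16 overlaps MED11 on the opposite strand, which had 466 counts over the 6 libraries beside 2191 for CXCL16. No source used here says whether the counting used strand.

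CX3CL1, or fractalkine, the membrane-anchored ligand of CX3CR1 (chromosome 16, 57372458 to 57385048), stood at 11.5, 10.9 and 12.5 CPM in PQ+SS-31 libraries, against 8.37, 8.22 and 8.72 CPM in PQ libraries. Every PQ+SS-31 library lay above every PQ library. The means were 11.6 ± 0.831 CPM in PQ+SS-31 cells and 8.44 ± 0.260 CPM in PQ cells (SD, n = 3 each), on 130 to 215 counts a library. On the log2 scale the difference was 0.46 ± 0.13 (SE) and did not pass (edgeR adjusted p = 0.192), with 0.41 to 0.51 in refits without 1 library.

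Per kilobase of the gene length in the table, CXCL5 was far above the other members, at 447 ± 34.0 CPM per kb in PQ+SS-31 cells and 573 ± 34.6 CPM per kb in PQ cells (SD, n = 3 each). CXCL8 followed at 64.6 ± 1.88 CPM per kb in PQ+SS-31 cells and 102.7 ± 4.10 CPM per kb in PQ cells. CXCL1 was at 60.5 ± 17.4 CPM per kb in PQ+SS-31 cells and 83.5 ± 28.0 CPM per kb in PQ cells, which differs from CXCL8 by less than its spread in either group. CXCL2 was at 22.2 ± 8.47 CPM per kb in PQ+SS-31 cells and 42.5 ± 21.6 CPM per kb in PQ cells, and CXCL3 at 11.01 ± 3.94 CPM per kb in PQ+SS-31 cells and 19.4 ± 8.61 CPM per kb in PQ cells. CXCL16, CCL20, CCL2 and CX3CL1 followed in that order, with group means of 7.75 CPM per kb for CXCL16 in PQ+SS-31 cells down to 1.41 CPM per kb for CX3CL1 in PQ cells, and CXCL6 came last. Of these, CXCL16 and CCL20 differed by less than the SD of CCL20 within PQ cells and within PQ+SS-31 cells.

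The 3′ untranslated regions of the members differ in the AU-rich pentamer ATTTA, a letter pattern found in many short-lived messages. Counted on the sense strand of the longest coding transcript in GENCODE 29, the density was highest in CXCL2, with 10 pentamers in 721 bases or 13.9 per kb, and in CXCL3, with 7 in 673 bases or 10.4 per kb. CXCL8 had 9 in 1252 bases (7.19 per kb) and CXCL1 had 5 in 706 bases (7.08 per kb). The median over 12034 tested genes with at least 200 bases of 3′ UTR was 1.80 per kb, and 0.116% of them reached the density of CXCL2. CXCL16, with 1.02 per kb, and CX3CL1, with 0.995 per kb, lay below that median. The longer pattern TTATTTATT, which contains the pentamer and can overlap itself, occurred 5 times in CXCL2, 3 times in CXCL1 and 1 time each in CXCL3, CXCL8 and CX3CL1, and in 10.2% of the 12034 genes.

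**Figure D3:**
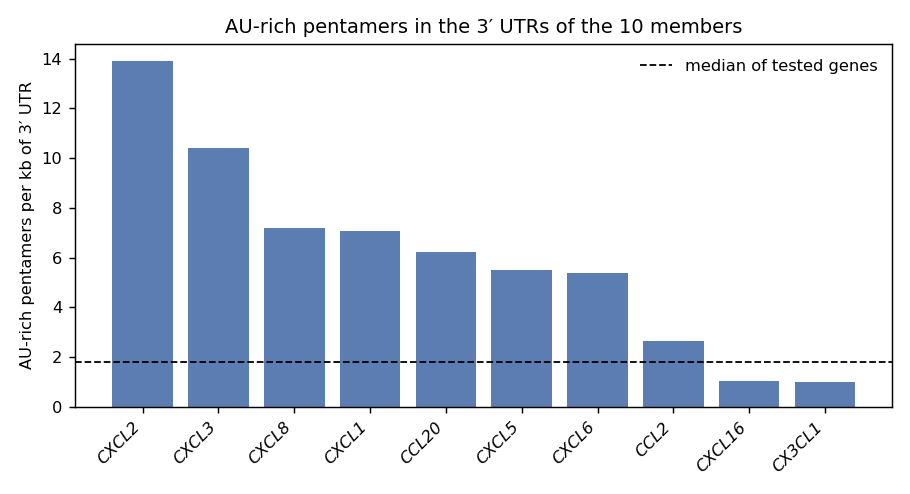
Number of AU-rich pentamers per kb of 3′ UTR (y axis, from 0) in the 10 members (x axis), with the median of 12034 tested genes, 1.80 per kb, as a dashed line. CXCL2 and CXCL3 stand highest, and CXCL16 and CX3CL1 lie below the line.

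The CXC cluster spans 358.8 kb from the start of CXCL8 to the end of CXCL2 (chromosome 4, 73740506 to 74099293) and holds 16 genes of the table, 9 of them protein-coding. The 5 tested genes in the span were the members CXCL8, CXCL1, CXCL5, CXCL3 and CXCL2, all with negative log2 fold changes. The platelet chemokines PF4 and PPBP, which lie between them, had few counts. PF4 had 14, 10 and 8 counts in PQ+SS-31 libraries, against 4, 6 and 1 counts in PQ libraries, PPBP had 5 counts over the 6 libraries, and PF4V1 had none. Within 500 kb of the span, 5 of 9 protein-coding genes were tested. EREG, which encodes the EGF receptor ligand epiregulin, fell to 489 CPM in PQ+SS-31 cells, against 742 CPM in PQ cells (log2 fold change -0.60 ± 0.10, SE, edgeR adjusted p = 0.0414, passing in 1 of 6 refits without 1 library). MTHFD2L, the closest tested gene beyond CXCL2, had a log2 fold change of 0.02, RASSF6, the closest on the CXCL8 side, had 0.32, AREG had -0.32 and ANKRD17 had -0.07, and none of these passed.

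**Figure D4:**
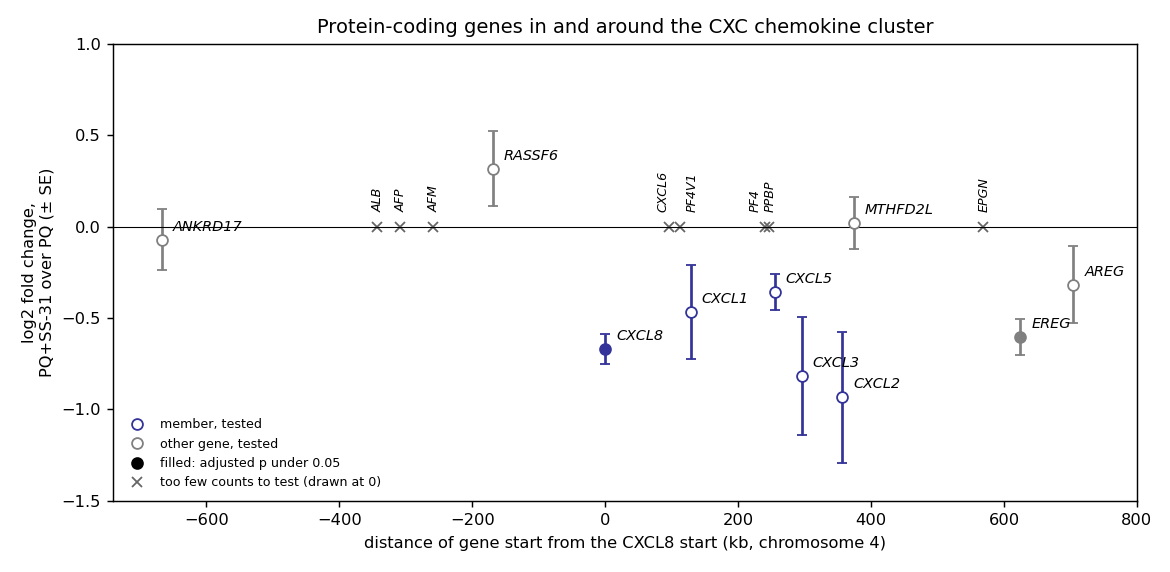
Log2 fold change of PQ+SS-31 over PQ with its SE (y axis) for protein-coding genes in and around the CXC cluster, by the distance of the gene start from that of CXCL8 in kb (x axis). Crosses at 0 are genes with too few counts to test. CXCL8 and EREG passed the threshold, and the tested chemokines between them have log2 fold changes of -0.93 to -0.36.

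A list of the 36 other human chemokines gave 9 tested genes, of which edgeR, DESeq2 and limma-voom called 0 in either direction. At an unadjusted p under 0.05 in edgeR, 1 was lower and 2 higher, against 5.94% and 5.62% of all tested genes. The median log2 fold change of the 9 was 0.30, with 7 positive and 2 negative, beside 7782 positive and 7765 negative over all tested genes. No count was found in any library for 16 of the 36. CCL5, or RANTES, which draws T cells and monocytes, was the most abundant of this list, at 1471, 1253 and 1237 CPM in PQ+SS-31 libraries, against 1166, 1142 and 1155 CPM in PQ libraries. Its groups did not overlap, and its log2 fold change of 0.19 ± 0.10 (SE) did not pass (edgeR adjusted p = 0.520). CXCL11, a CXCR3 ligand induced by interferon, stood at 20.8 ± 0.245 CPM in PQ+SS-31 cells and 15.5 ± 1.95 CPM in PQ cells (SD, n = 3 each, log2 fold change 0.43). CXCL10, of the same family, stood at 10.01 ± 0.971 CPM in PQ+SS-31 cells and 7.55 ± 0.891 CPM in PQ cells (log2 fold change 0.41), and neither passed. CCL3 and CCL3L1, named after their values were seen, were the 2 negative genes, with log2 fold changes of -0.59 and -0.72, and they are near-identical copies whose reads can be split.

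**Figure D5:**
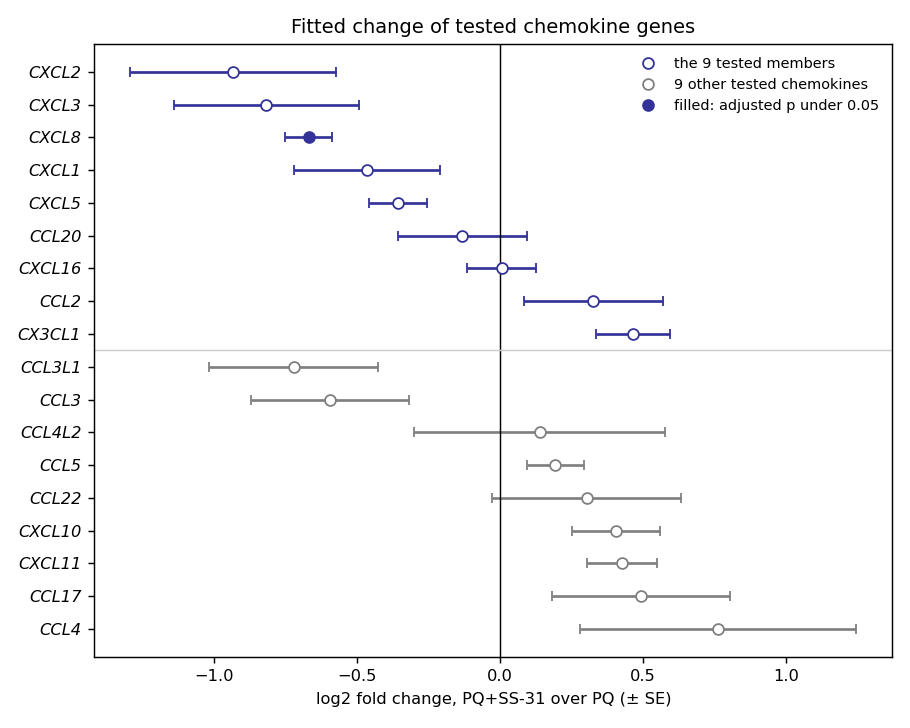
Log2 fold change of PQ+SS-31 over PQ with its SE (x axis) for the 9 tested members, above the line, and 9 other tested chemokines, below it. The filled symbol is CXCL8, which passed the threshold, and open symbols did not pass.

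Summed per kilobase over the 46 chemokine genes, CXCL5 made up 28.3% to 30.3% in PQ+SS-31 libraries and 34.5% to 36.0% in PQ libraries. CXCL8 made up 3.91% to 4.53% in PQ+SS-31 libraries and 6.02% to 6.80% in PQ libraries. CCL5 made up 55.8% to 58.3% in PQ+SS-31 libraries and 44.0% to 49.3% in PQ libraries. These shares are tied to each other, since a smaller share of 1 gene enlarges the rest. The 6 neutrophil-attracting CXC genes summed to 1296 to 1560 CPM in PQ+SS-31 libraries and 1733 to 2072 CPM in PQ libraries, most of it CXCL5.

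Receptors for these ligands were scarce in the A549 libraries. Of 23 chemokine receptor genes, 3 were tested, and edgeR and limma-voom called 0 of them. CXCR1 and CCR6 had no count in any library. CXCR2 had 3, 1 and 0 counts in PQ+SS-31 libraries, against 0, 4 and 2 in PQ libraries. The most abundant was ACKR3, a scavenging receptor of CXCL12 and CXCL11, at 10.5 ± 2.09 CPM in PQ+SS-31 cells and 17.7 ± 3.35 CPM in PQ cells (SD, n = 3 each). Its groups did not overlap and its log2 fold change was -0.75 ± 0.19 (SE, edgeR adjusted p = 0.142), while DESeq2 called it lower with an adjusted p of 0.0182. At an unadjusted p under 0.05, edgeR had 1 receptor lower and 0 higher, against 5.94% and 5.62% of all tested genes.

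Among 8 genes of chemokine shedding and surface binding, edgeR, DESeq2 and limma-voom called 0. At an unadjusted p under 0.05 in edgeR, 0 were lower and 1 higher, against 5.94% and 5.62% of all tested genes. ADAM10, a protease that sheds CXCL16 and CX3CL1, stood at 247 ± 2.66 CPM in PQ+SS-31 cells and 213 ± 9.57 CPM in PQ cells (SD, n = 3 each, log2 fold change 0.22, edgeR adjusted p = 0.351). The heparan sulphate proteoglycans SDC4 and SDC1, which bind chemokines at the cell surface, had log2 fold changes of 0.09 and 0.13.

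A list of 24 genes of chemokine induction by interleukin-1 and tumour necrosis factor receptors also holds inhibitors of that signalling. Of the 24 genes, 2 fell and 0 rose by edgeR, against 0.463% and 0.129% of all tested genes. At an unadjusted p under 0.05, 7 of them were lower and 1 higher in edgeR, against 5.94% and 5.62% of all tested genes. DESeq2 called 3 of them lower and 0 higher, against 1.63% and 0.958% of the genes it tested. The third was TNFAIP3, an inhibitor of this signalling. Limma-voom called 2 lower and 0 higher, against 0.476% and 0.135% of all tested genes. Their median log2 fold change was -0.15, with 18 negative and 6 positive. IRAK2, a kinase of the interleukin-1 receptor complex, fell to 99.3, 79.8 and 92.5 CPM in PQ+SS-31 libraries, against 143, 132 and 154 CPM in PQ libraries (log2 fold change -0.66 ± 0.11, SE, edgeR adjusted p = 0.0412). RELB, a subunit of the non-canonical NF-kB dimer, fell to 66.3, 71.4 and 75.7 CPM in PQ+SS-31 libraries, against 112, 104 and 103 CPM in PQ libraries (log2 fold change -0.58 ± 0.09, SE, edgeR adjusted p = 0.0307). Each passed in 1 of the 6 refits without 1 library, that without PQ replicate 3. The most abundant genes of the list did not pass: IRAK1, CEBPB and TNFRSF1A had log2 fold changes of -0.19, -0.37 and 0.25.

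Of 10 factors that destabilise or protect chemokine messages, edgeR, DESeq2 and limma-voom called 0. At an unadjusted p under 0.05 in edgeR, 1 of them was lower and 0 higher, against 5.94% and 5.62% of all tested genes. The median log2 fold change of the 10 factors was -0.08. Their most abundant genes ZFP36L1, ZFP36L2 and KHSRP, which promote decay of AU-rich messages, had log2 fold changes of -0.28, 0.01 and 0.14. Of 17 other neutrophil attractants and growth factors, 14 were tested and edgeR, DESeq2 and limma-voom called 0. In edgeR, 3 were lower and 2 higher at an unadjusted p under 0.05, beside the same shares of all tested genes. The growth factor CSF1, complement C3 and LTA4H, the enzyme that makes leukotriene B4, were the most abundant, with log2 fold changes of 0.04, 0.30 and 0.13.

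Over the 6 libraries, the genes whose centred log2 CPM lay closest to that of CXCL8 were IGFBP3, a binder of insulin-like growth factors, PLIN2, a lipid droplet coat protein, SPHK1, a sphingosine kinase, SLC2A3, a glucose transporter, and SPP1, or osteopontin. Their root-mean-square differences from CXCL8 were 0.056, 0.058, 0.061, 0.064 and 0.065. All 5 had log2 fold changes of -0.69 to -0.57, which follows from the measure, since it includes the difference between the groups. Among the members, CXCL5 was the closest to CXCL8 at 0.176 (rank 204 of the genes compared) and CX3CL1 the farthest at 0.571.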

How the data were processed

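The authors deposited raw read counts per gene for 6 A549 libraries, whole numbers in 1 table of 58735 genes that also gives each gene's length. Per the submitters' processing notes, the tools were HISAT2 2.0.5, featureCounts 1.5.0-p3, CASAVA and DESeq2 1.20.0. The same notes give mm10 as build, yet the gene IDs are human, and all 10 members match GENCODE 29 (GRCh38) in position. Columns were assigned by group letter and replicate number.

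The counts were reduced by filterByExpr to 15550 genes, scaled with TMM factors and tested with edgeR 4.0.16 (R 4.3.3) by its quasi-likelihood test, with Benjamini-Hochberg adjustment over all tested genes. The scripts were tested on simulated data. Within groups, chi-square per degree of freedom between libraries was 6.88 to 32.2, above sampling noise, so all 6 were counted.

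All members are named. From the other lists, genes called over all genes and otherwise up to 3 of the most abundant are named, and other genes were added after their values were seen (CCL3, CCL3L1, CXCR1, CXCR2, CCR6 and TNFAIP3, and from the marker lists EPCAM, SFTPB, SFTPC, SFTPA1, NKX2-1, ABCA3, NAPSA, ELANE, PTPRC, CSF3R, MPO, CD3E and LUM). NEAT1, which is in none of the lists, was added in the same way. Neighbours are the genes in the CXC cluster and protein-coding genes within 500 kb of it. CXCL2 was likewise chosen later as a base for likeness. Members, lists and tests were chosen with earlier results of these data known. Alternatives were other scaling factors, other filters, the replicate number as a block, DESeq2 1.42.0, limma-voom (limma 3.58.1) and leaving out each library.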

Additional observations from a re-analysis of the deposited data

How the results depend on the processing

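Across 14 alternatives, the 9 tested members gave 126 refitted log2 fold changes, of which 112 kept their direction and side of the threshold. CXCL8 was below 0 in every alternative and lost its call in 5, all of them refits without 1 library. Signs reversed for CXCL16 with library size alone (-0.0087) and in refits lacking PQ replicate 2 or PQ+SS-31 replicate 3, with a range of -0.082 to 0.0625 over the 6 refits without 1 library. CCL20 reversed in refits lacking PQ replicate 3 or PQ+SS-31 replicate 2, with a range of -0.31 to 0.075 over the same refits. With no filter, edgeR called 4 members lower (CXCL8, CXCL1, CXCL2 and CXCL3), with 237 genes lower and 156 higher in all. No other alternative called CXCL1, CXCL2 or CXCL3. DESeq2 called 2 members lower, with 209 genes lower and 123 higher in all. The cause was not tested. Library size alone gave 13 genes higher. In refits without 1 library, 0 to 203 genes were lower and 0 to 125 higher, 0 to 1 members were lower, and the members' median log2 fold change was -0.41 to -0.19. The counts of 203 and 125 were those without PQ replicate 3, and no other refit called more than 10 genes lower or any higher.

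Same-numbered libraries of PQ+SS-31 and PQ had deviations correlated at -0.09, 0.39 and 0.19 over genes, so the numbers were not taken to pair them. With a replicate block, 134 genes were lower and 66 higher in all, 1 member was lower, and the members' median log2 fold change was -0.36. CCL20 and CCL2 had 71 to 225 counts a library and SEs of 0.23 and 0.24, which limits what could be seen. CX3CL1, at 130 to 215 counts a library, had an SE of 0.13. Counting error and other spread between libraries were not told apart.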
